A study of Mus musculus with 8 samples.

Results

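Arntl, Clock, Npas2, Nr1d1, Nr1d2 and Rora encode the transcriptional activators of the circadian clock and the nuclear receptors that set the level of the activator BMAL1. They were chosen by name as 6 genes, and 5 of the 6 were paired with a probe set of 1 gene symbol, out of 19540 genes represented on the arrays. Npas2 was not analysed here. Each of the other 5 had 1 probe set, so the brightest one by mean over the 8 arrays was the only candidate. The members are Arntl (Entrez 11865, probe set 10556463), Clock (12753, 10530733), Nr1d1 (217166, 10390691), Nr1d2 (353187, 10417734) and Rora (19883, 10586700).

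Expression was measured in liver on 8 Affymetrix arrays, 4 from mice labelled HNF6KO and 4 from mice labelled WT. Mice of both groups were C57B/6 males aged 12 weeks, kept on chow with no other treatment and sampled at ZT10 (10 h after lights on, given as 5 pm). HNF6, encoded by Onecut1, is a homeodomain transcription factor of liver cells. The labels do not say how HNF6 was removed, in which cells, or whether each array came from a separate mouse. The p-values therefore reflect the spread among the 8 arrays, which may be technical. The question is how the clock genes around REV-ERBα, which the study's title names together with HNF6, stand in livers labelled HNF6KO.

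BMAL1 (from Arntl) pairs with CLOCK, or with the related NPAS2, and the pair activates genes through E-box sequences, among them Nr1d1, Nr1d2 and the Period and Cryptochrome genes. The REV-ERB receptors made from Nr1d1 and Nr1d2 repress, and the ROR receptors activate, genes that carry ROR response elements, and Arntl is the textbook example of such a gene. In mouse liver the Nr1d1 transcript peaks in the second part of the light phase, when the Arntl transcript is near its low point.

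The promoter sequence shown first is the Arntl site where the core of a ROR and REV-ERB element was found, because this is the link between the receptors and the activator. The sequences are RefSeq reference sequence of build GRCm38.p6, and capitals mark the core TAGGTCA. The 30 bases lie on the plus strand at chr7:113207530-113207559, and the core begins at base 31 of the transcript that starts at the more downstream of the 2 Arntl starts.
Arntl: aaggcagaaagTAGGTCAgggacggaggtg
The windows searched run from 250 bases before to 50 after each annotated start, on both strands, and gave 9 windows for the 6 genes. TAGGTCA was found in 1 of the 9, against 2.61% of 32817 windows of all genes. The other letters searched were absent from all 9 windows. These were the E-box CACGTG (in 7.15% of all windows), the other ROR core TGGGTCA (3.98%), the D-box TTANGTAA (2.32%), and the ONECUT cores ATTGAT (7.54%) and ATCGAT (0.926%). A match is a string of letters and not a measured binding site, and an absent string says nothing of sites elsewhere in the gene.

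The 250 bases before the start are shown for Nr1d1 and Clock, the 2 members with the largest differences between the groups. Neither holds any of the letters searched, so they carry no capitals. The Nr1d1 stretch is on the minus strand at chr11:98775378-98775627 and is 54.8% G and C. The Clock stretch, before the most upstream of its 3 starts, is on the minus strand at chr5:76304793-76305042 and is 76.4% G and C.
Nr1d1: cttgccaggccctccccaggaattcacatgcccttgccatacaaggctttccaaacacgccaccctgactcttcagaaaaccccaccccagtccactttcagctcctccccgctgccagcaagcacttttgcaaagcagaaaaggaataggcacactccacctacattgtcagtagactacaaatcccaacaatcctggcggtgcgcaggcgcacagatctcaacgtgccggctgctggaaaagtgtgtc
Clock: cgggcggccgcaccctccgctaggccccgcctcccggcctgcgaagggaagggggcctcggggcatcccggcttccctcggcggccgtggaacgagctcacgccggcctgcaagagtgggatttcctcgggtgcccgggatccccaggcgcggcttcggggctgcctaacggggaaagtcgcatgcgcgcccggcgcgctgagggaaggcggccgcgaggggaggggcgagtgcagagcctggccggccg

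The targeted gene was checked first. Onecut1 had log2 values of 9.32, 9.05, 8.67 and 8.70 on HNF6KO arrays 1 to 4, against 10.17, 9.87, 10.45 and 10.52 on WT arrays 1 to 4. All HNF6KO arrays lay below all WT arrays, and the log2 change (HNF6KO minus WT) was -1.32 ± 0.18 (SE, limma, adjusted p = 0.0273). The transcript was 2.49-fold lower and still above the array medians of 6.89 to 6.97 on every HNF6KO array, and whether the probe set lies in a deleted stretch is not stated. The size of the change was uneven over the array numbers, at -0.83 among the arrays numbered 1 and 2 and -1.80 among those numbered 3 and 4. The labels name no batch. The mean of 6 Kupffer cell markers was 8.09, 7.59, 9.17 and 8.86 on HNF6KO arrays 1 to 4, against 7.45, 8.38, 8.53 and 8.78 on WT arrays 1 to 4. It was higher on arrays 3 and 4 than on arrays 1 and 2 in both groups. The same order held in both groups for the means of the hepatocyte, sinusoidal endothelial and stellate cell markers. The part of any cell type in the Onecut1 change was not tested.

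None of the 5 measured members passed an adjusted p of 0.05 in limma, where 0.399% of all genes did (0.241% lower in HNF6KO). Clock and Nr1d1 had unadjusted p under 0.05, as did 9.51% of all genes, and both were lower in HNF6KO (5.21% of all genes were lower and 4.3% higher). Clock was the 1 member whose groups did not overlap, a separation seen in 5.67% of all genes (3.21% lower and 2.45% higher). Arntl, Nr1d2 and Rora lay within the spread between arrays.

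**Figure D1:**
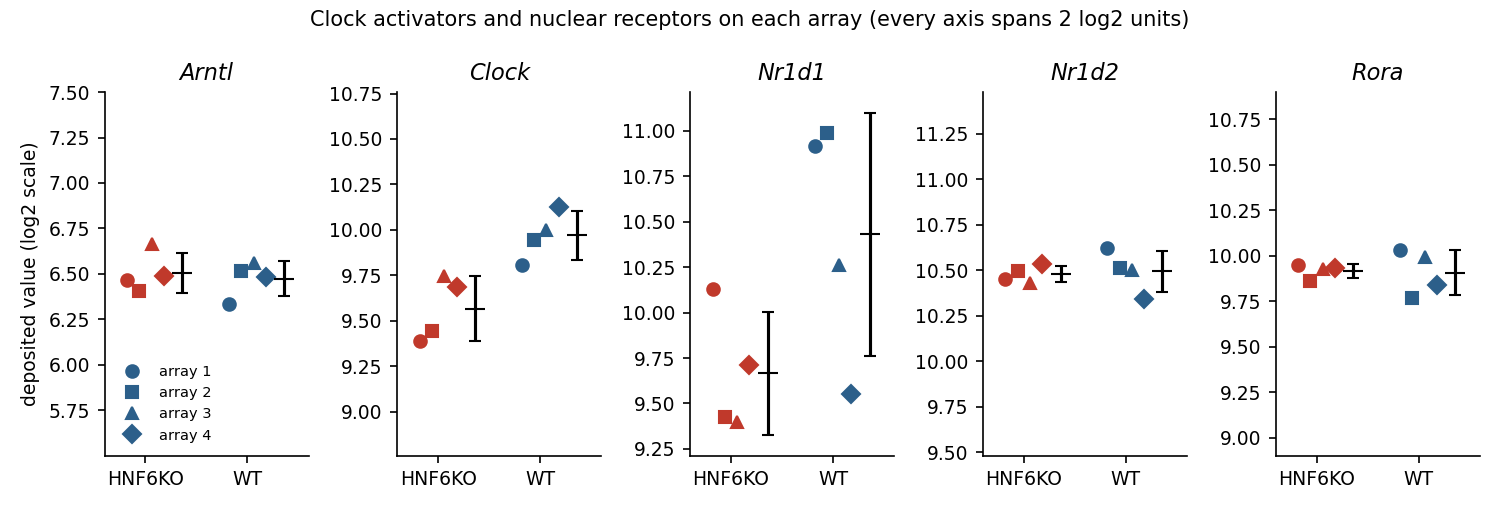
Deposited log2 values of the 5 measured members on each array, HNF6KO at the left (red) and WT at the right (blue), with a symbol for each array number and the mean ± SD of the group beside it; every vertical axis spans 2 log2 units. Clock has all 4 HNF6KO arrays below the WT arrays, Nr1d1 has the widest spread with WT arrays from 9.55 to 10.99, and the other 3 genes overlap.

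Clock, the histone acetyltransferase partner of BMAL1, was lower on every HNF6KO array. Its log2 values were 9.39, 9.44, 9.75 and 9.69 on HNF6KO arrays 1 to 4, against 9.81, 9.94, 10 and 10.13 on WT arrays 1 to 4. The highest HNF6KO array, number 3, lay just under the lowest WT array, number 1. The means were 9.57 ± 0.18 in HNF6KO and 9.97 ± 0.13 in WT (SD, n = 4 each), a log2 change of -0.40 ± 0.10 (SE) or 1.32-fold lower (limma, unadjusted p = 0.00274, adjusted p = 0.184). The 95% interval of the change ran from -0.62 to -0.18. An exact permutation test of this gene alone gave p = 0.0286 (two-sided), the smallest that 4 against 4 arrays allow.

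The difference in Clock was present on both sides of the array numbers. The log2 change was -0.46 among arrays 1 and 2 and -0.35 among arrays 3 and 4, and within each group arrays 3 and 4 were higher than arrays 1 and 2. With this split as a term in the fit, a choice made with the data known, the unchanged difference of -0.40 had an SE of 0.06 and passed (limma, adjusted p = 0.0143). With this term 245 genes passed in all, against 78 without it. Where any 1 array was left out, the change stayed between -0.46 and -0.34 and did not pass.

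Nr1d1, which encodes the repressor REV-ERBα, had the largest difference among the members and also the largest spread. Its log2 values were 10.13, 9.42, 9.40 and 9.71 on HNF6KO arrays 1 to 4, against 10.92, 10.99, 10.26 and 9.55 on WT arrays 1 to 4. WT arrays 1, 2 and 3 were above every HNF6KO array, while WT array 4 fell inside the HNF6KO range and below HNF6KO arrays 1 and 4. The means were 9.67 ± 0.34 in HNF6KO and 10.43 ± 0.67 in WT (SD, n = 4 each). The log2 change was -0.76 ± 0.31 (SE) or 1.70-fold lower, with a 95% interval from -1.46 to -0.06 (limma, unadjusted p = 0.0356, adjusted p = 0.477). The exact permutation test gave p = 0.114 (two-sided).

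The 4 WT arrays alone differed by up to 2.70-fold in Nr1d1, and the 4 HNF6KO arrays by up to 1.66-fold. The SD within groups of Nr1d1 was 0.53, higher than in 99.0% of all genes, whose median was 0.10. Without WT array 4 the log2 change was -1.06 (limma, adjusted p = 0.155), and without WT array 2 it was -0.58 (adjusted p = 0.798). Among arrays 1 and 2 the change was -1.18, and among arrays 3 and 4 it was -0.35. The difference between these 2 values was not tested. Across the 8 arrays Nr1d1 had a Pearson r of -0.43 with the mean of the Kupffer cell markers (exact permutation adjusted p = 0.460 over 15 relations). With the sinusoidal endothelial markers its r was -0.55 (exact permutation adjusted p = 0.460). Without WT array 1 and HNF6KO array 2 the r was -0.72 with the Kupffer and -0.78 with the endothelial markers. The part of these cells in the result was not tested.

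Nr1d2, encoding the paralog REV-ERBβ, did not follow Nr1d1 in the group means. Its log2 values were 10.45, 10.50, 10.43 and 10.53 on HNF6KO arrays 1 to 4, against 10.62, 10.51, 10.50 and 10.34 on WT arrays 1 to 4. The groups overlapped, and WT arrays 1 and 4 were the highest and the lowest of all 8. The means were 10.48 ± 0.04 in HNF6KO and 10.49 ± 0.11 in WT (SD, n = 4 each). The log2 change was -0.02 ± 0.06 (SE, limma, adjusted p = 0.974), and its 95% interval of -0.16 to 0.13 spans a ratio of 0.896 to 1.09.

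Whether the 2 REV-ERB genes changed by unequal amounts was tested on the difference of their log2 values on each array. Nr1d1 minus Nr1d2 averaged -0.81 ± 0.34 in HNF6KO and -0.06 ± 0.57 in WT (SD, n = 4 each). The 2 means differed by -0.75, which did not pass (exact permutation test, two-sided, p = 0.0571, adjusted p = 0.114 over 2 such tests).

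Rora, encoding the activator RORα that binds the same elements as the REV-ERBs, overlapped between the groups. Its log2 values were 9.95, 9.86, 9.93 and 9.93 on HNF6KO arrays 1 to 4, against 10.03, 9.77, 9.99 and 9.84 on WT arrays 1 to 4. The HNF6KO arrays all fell between the lowest and the highest WT array. The log2 change was 0.01 ± 0.07 (SE, limma, adjusted p = 0.983), and its 95% interval of -0.14 to 0.16 spans a ratio of 0.908 to 1.12. The direction has no weight, since it turned to -0.036 without WT array 2.

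Arntl, encoding BMAL1, was not higher in HNF6KO beyond the spread between arrays. Its log2 values were 6.47, 6.41, 6.67 and 6.49 on HNF6KO arrays 1 to 4, against 6.34, 6.52, 6.56 and 6.48 on WT arrays 1 to 4. The highest array was HNF6KO array 3 and the lowest was WT array 1, and the groups overlapped. The means were 6.51 ± 0.11 in HNF6KO and 6.47 ± 0.10 in WT (SD, n = 4 each). The log2 change was 0.03 ± 0.07 (SE, limma, adjusted p = 0.949), with a 95% interval of -0.13 to 0.20 or a ratio of 0.914 to 1.14. These values lie under the array medians of 6.89 to 6.97, and the background level of the arrays was not measured here.

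The contrast between the repressor and the activator whose gene it represses was tested in the same way as that of the REV-ERB pair. Arntl minus Nr1d1 averaged -3.16 ± 0.39 in HNF6KO and -3.96 ± 0.71 in WT (SD, n = 4 each). The means differed by 0.80 with overlapping arrays (exact permutation test, two-sided, p = 0.114, adjusted p = 0.114 over 2 tests). Only the difference between the groups can be read, since the signals of 2 probe sets are not on 1 scale.

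**Figure D2:**
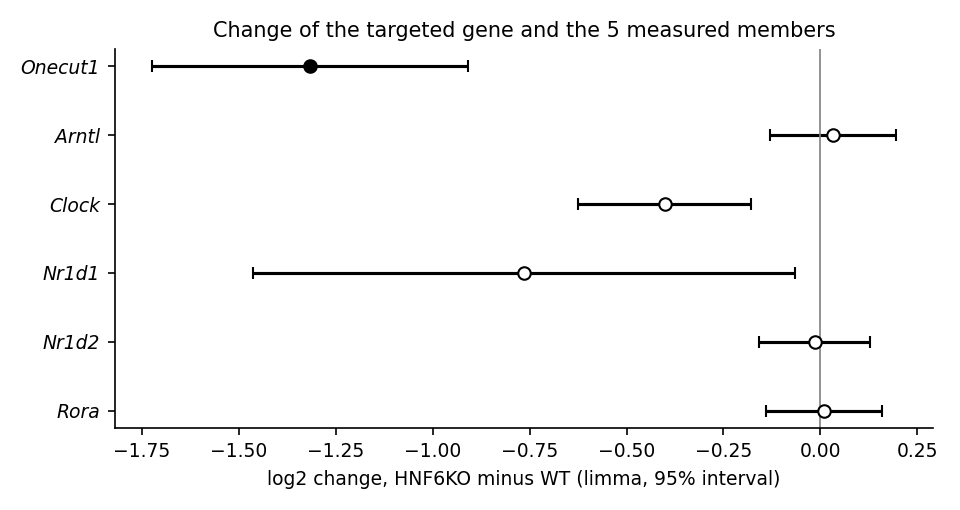
Log2 change (HNF6KO minus WT, horizontal axis) with its 95% interval from limma for the targeted gene Onecut1 and the 5 measured members, filled where the adjusted p was under 0.05. Onecut1 alone is filled, Clock (-0.40) and Nr1d1 (-0.76) have intervals below 0, and the intervals of Arntl, Nr1d2 and Rora include 0.

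Over the 8 arrays no pair of members was correlated past the threshold. Of the 10 pairs, none passed an exact permutation test of Pearson's r or Spearman's rho after adjustment over the 10 (smallest adjusted p = 0.788 and 0.831). Nr1d1 and Nr1d2 had the highest r, at 0.63 (p = 0.0909, exact permutation) with a rho of 0.67 (p = 0.0831). Their r was 0.30 without WT arrays 1 and 2, the 2 farthest from the median of Nr1d1, 0.42 without WT array 1 alone and 0.69 without WT array 2 alone. After each group's mean was subtracted it was 0.74, given as a description with no test. Arntl and Nr1d1, the gene repressed and its repressor, had an r of -0.35 (p = 0.404, exact permutation) and a rho of -0.14 (p = 0.752). That r was 0.63, of the opposite sign, without WT array 1 and HNF6KO array 3.

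The activator partners Clock and Arntl, like Nr1d1 and Nr1d2, had a higher r after the group means were subtracted than before. Their r over the 8 arrays was 0.26 (exact permutation p = 0.548) with a rho of 0.33 (p = 0.428), and 0.71 without WT array 1 and HNF6KO array 3. After each group's mean was subtracted it was 0.73, given as a description with no test. Clock and Nr1d1 had an r of 0.25 over all arrays (exact permutation p = 0.546), and of 0.68 without WT array 4 and HNF6KO array 1. After the group means were subtracted over all 8 arrays it was -0.66, of the opposite sign and also not tested.

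The members were also set against the Kupffer, sinusoidal endothelial and stellate cell markers, and none of the 15 relations passed after adjustment. Arntl had the highest r with each of these 3 lists. Its r with the mean of the 6 Kupffer cell markers was 0.86 (exact permutation p = 0.00484, adjusted p = 0.0725 over 15 relations), with a rho of 0.81 (p = 0.0218, adjusted p = 0.163). It was 0.65 without WT array 1 and HNF6KO array 2, the arrays with the lowest Kupffer marker level. With the sinusoidal endothelial markers Arntl had an r of 0.80 (exact permutation adjusted p = 0.0738), and of 0.53 without WT array 1 and HNF6KO array 2. These relations were looked at after the values were seen, and the part of these cells in the Arntl signal was not tested. The 4 other members had an r between -0.58 and 0.41 with the Kupffer markers.

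**Figure D3:**
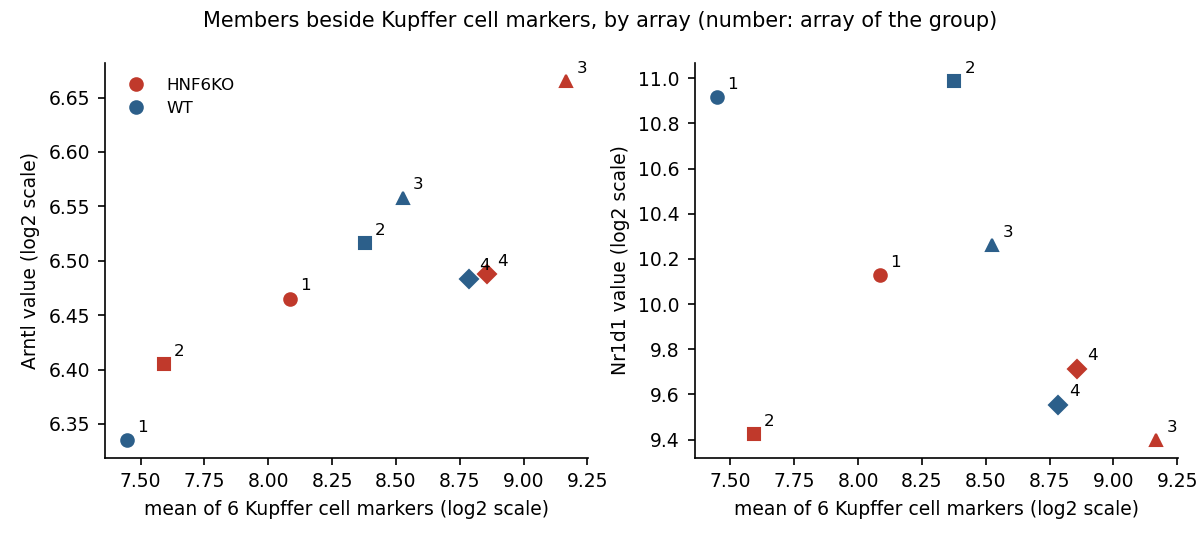
Values of Arntl (left panel) and Nr1d1 (right panel) on the vertical axes against the mean of 6 Kupffer cell markers on the horizontal axis, all on the log2 scale, with HNF6KO arrays in red, WT arrays in blue and the array number beside each point. Arntl is lowest on WT array 1 and highest on HNF6KO array 3, where the marker mean is also lowest and highest (r = 0.86), while Nr1d1 is spread widely (r = -0.43).

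In limma no gene of the marker lists passed the adjusted threshold. At an unadjusted p under 0.05, 1 hepatocyte marker and 1 T and NK cell marker were higher and the erythroid marker Alas2 was lower. Of all genes, 4.3% were higher and 5.21% were lower at that p. The 6 hepatocyte markers averaged 13.36 to 13.57 on HNF6KO arrays and 13.36 to 13.53 on WT arrays, among the brightest signals of arrays whose medians were 6.89 to 6.97. The 6 Kupffer markers ranged from 7.59 to 9.17 in HNF6KO and from 7.45 to 8.78 in WT. The 4 sinusoidal endothelial markers ranged from 8.62 to 9.47 in HNF6KO and from 8.45 to 9.37 in WT, and the 5 stellate cell markers from 8.94 to 9.63 in HNF6KO and from 8.91 to 9.68 in WT. The means of the cholangiocyte, T and NK cell, B cell and neutrophil lists lay between 4.75 and 6.45 on all arrays. Of the erythroid list only Alas2 was measured, at 8.39 to 9.32 in HNF6KO and 9.70 to 10.02 in WT (limma, adjusted p = 0.0925), and its part in the Clock and Nr1d1 values was not tested. For genes expressed by several cell types, fewer cells and less RNA per cell cannot be told apart in these bulk samples.

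Clock and Nr1d1 each had genes whose values followed theirs closely from array to array. Among 2203 named genes above the median level and with an SD of at least 0.2, Clock was closest to Mindy3, a deubiquitinase (r = 0.98), and Plekhf1 (r = 0.96). It ran opposite to Qdpr, which regenerates tetrahydrobiopterin (r = -0.97). Mindy3 had log2 values of 9.59, 9.53, 9.82 and 9.83 on HNF6KO arrays 1 to 4, against 9.99, 9.99, 10.12 and 10.18 on WT arrays 1 to 4. It thus shared both the gap between the groups and the higher level of arrays 3 and 4. Nr1d1 was closest to Tcf7l2, a transcription factor of the Wnt pathway (r = 0.98), and Fgd4 (r = 0.97), and ran opposite to Pros1, the anticoagulant protein S (r = -0.96). Tcf7l2 had log2 values of 9.22, 9.01, 9.02 and 9.05 on HNF6KO arrays 1 to 4, against 9.63, 9.59, 9.30 and 9.14 on WT arrays 1 to 4, and so was high on WT arrays 1 and 2 and lower on WT array 4, as Nr1d1 was.

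The other members had somewhat looser neighbours. Arntl was closest to Cyba, a subunit of the phagocyte NADPH oxidase (r = 0.93), and Serpinb6a (r = 0.93), and opposite to Lrrc42 (r = -0.90). Nr1d2 was closest to Mif (r = 0.95) and Mgst3 (r = 0.94), and Rora to Nudt19 (r = 0.95) and the Hedgehog receptor gene Ptch1 (r = 0.88). Both Nr1d2 and Rora ran opposite to Cyp7a1, the rate-limiting enzyme of bile acid synthesis (r = -0.86 and -0.82). Each r is over 8 arrays that share the same group and array differences, and it was picked as the extreme among all candidate genes, so it describes these arrays only. After quantile normalization Cyp7a1 had an r of -0.39 with Nr1d2 and -0.52 with Rora, and Rora had one of 0.61 with Ptch1 and 0.83 with Nudt19.

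The genes that BMAL1 and CLOCK drive through E-boxes gave no gene past the threshold. Of 15 listed, 14 were measured, 0 rose, 0 fell and 14 did not pass in limma. At an unadjusted p under 0.05, 1 was higher and 2 were lower, as were 4.3% and 5.21% of all genes. An adjusted p under 0.05 was reached by 0.399% of all genes. The median log2 change was 0.02, against -0.01 over all genes. Its sign turned without HNF6KO array 4 (-0.036) and without HNF6KO arrays 3 and 4 (-0.11), and it was 0.13 with array weights. Nampt, the NAD salvage enzyme, was higher on every HNF6KO array, at 9.97 to 10.67 in HNF6KO and 9.33 to 9.76 in WT (log2 change 0.75 ± 0.15, limma, adjusted p = 0.0891). Bhlhe41, a repressor of E-box genes, was lower on every HNF6KO array, at 5.52 to 5.86 in HNF6KO and 6.10 to 7.24 in WT (-0.84 ± 0.22, adjusted p = 0.223). It was dim, with means of 5.68 in HNF6KO and 6.52 in WT under the array medians of 6.89 to 6.97. Its change was -0.60 without WT array 1 and -0.98 without WT array 3. Of all genes, 2.45% were higher and 3.21% were lower on every HNF6KO array. The output factor Dbp had a log2 change of -0.30 ± 0.13 and Per2 one of 0.20 ± 0.09, with overlapping groups (adjusted p = 0.497 and 0.542). WT array 1 was the highest of all 8 in Bhlhe41 and Dbp, and WT array 4 was the lowest WT array in Dbp, as in Nr1d1.

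Of the genes described as carrying ROR and REV-ERB elements, 1 passed. Of 13 listed, 11 were measured, 0 rose, 1 fell (Elovl3) and 10 did not pass, where 0.399% of all genes passed. At an unadjusted p under 0.05, 1 was higher and 3 were lower, as were 4.3% and 5.21% of all genes. Their median log2 change was -0.12, against -0.01 over all genes, and ran from -0.21 without HNF6KO array 1 to -0.034 without HNF6KO array 3. Elovl3, a fatty acid elongase, had log2 values of 9.19, 8.69, 8.83 and 8.44 on HNF6KO arrays 1 to 4, against 10.39, 11.21, 10.69 and 10.87 on WT arrays 1 to 4. It fell by 2.01 ± 0.19 (SE, limma, adjusted p = 0.00773), with no HNF6KO array within 1 log2 unit of a WT array. The estrogen sulfotransferase gene Sult1e1 had a log2 change of 1.49 ± 0.39, the sterol regulator Insig2 one of -0.43 ± 0.16, and Nfil3, a repressor of D-box genes, one of -0.20 ± 0.08 (adjusted p = 0.211, 0.434 and 0.450). Sult1e1 was dim, with means of 6.05 in HNF6KO and 4.56 in WT under the array medians of 6.89 to 6.97, and its groups overlapped. Its change was 2.23 among arrays 1 and 2 and 0.76 among arrays 3 and 4. Nfil3 was lower on every HNF6KO array, though narrowly, at 8.03 to 8.16 in HNF6KO and 8.17 to 8.50 in WT. Such a separation, lower in HNF6KO, was seen in 3.21% of all genes.

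**Figure D4:**
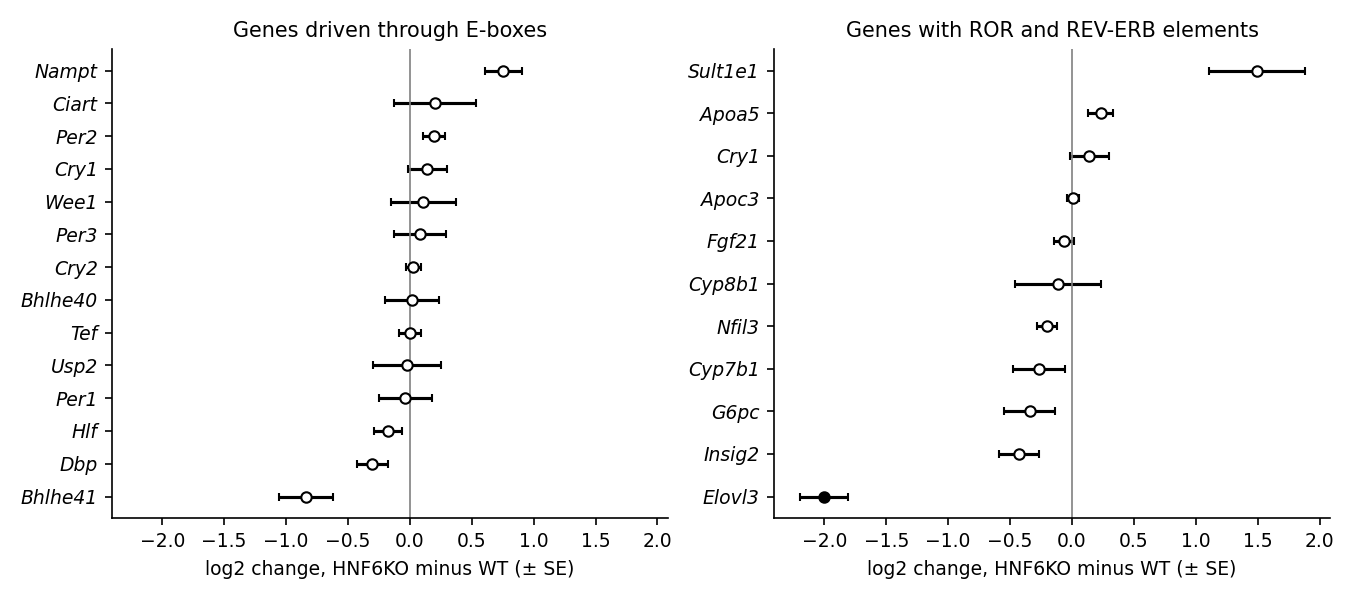
Log2 change (HNF6KO minus WT, horizontal axis) ± SE of the 14 measured genes driven through E-boxes (left) and the 11 measured genes with ROR and REV-ERB elements (right), filled where the limma adjusted p was under 0.05. Elovl3 is the 1 filled point, and most E-box genes lie near 0 between Nampt at 0.75 and Bhlhe41 at -0.84.

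Regulators of these proteins and their paralogs did not pass either. Of 14 genes for kinases, ubiquitin ligases and coactivators that act on the clock proteins and receptors, 13 were measured, 0 passed and 2 were lower at an unadjusted p under 0.05 (median log2 change -0.01, and 0.0081 after quantile normalization). These 2 were the coactivator genes Ppargc1b (-0.36 ± 0.12, adjusted p = 0.331) and Crebbp (-0.15 ± 0.05, adjusted p = 0.346). Of all genes, 5.21% were lower at an unadjusted p under 0.05. Crebbp was lower on every HNF6KO array, at 10.09 to 10.17 in HNF6KO and 10.18 to 10.33 in WT, a separation seen in 3.21% of all genes. Ppargc1a, encoding PGC-1α, a coactivator of the ROR receptors, had a log2 change of 0.44 ± 0.20, opposite in sign to Ppargc1b, and Fbxw7, a ubiquitin ligase subunit, one of -0.10 ± 0.05 (adjusted p = 0.538 and 0.610). Ppargc1a was 0.27 without HNF6KO array 2, and Fbxw7 was -0.063 without WT array 4 and -0.043 as the mean of its probe sets. The paralogs Arntl2 and Rorb lay below the array medians in both groups, with log2 changes of -0.03 ± 0.08 and 0.03 ± 0.06 (adjusted p = 0.961 and 0.949).

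The lower values of Clock and Nr1d1 were followed over the other ways of handling the data. Clock kept a log2 change between -0.55 and -0.30 over all alternatives run, and passed in the 2 fits that hold the array number as a term. Those 2 fits passed more genes of any kind, 125 with the replicate block and 245 with the split, against 78 as reported. Nr1d1 kept its sign in each of them, but its size ran from -1.18 to -0.35 and it passed in none (limma, adjusted p = 0.150 to 0.798).

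**Figure D5:**
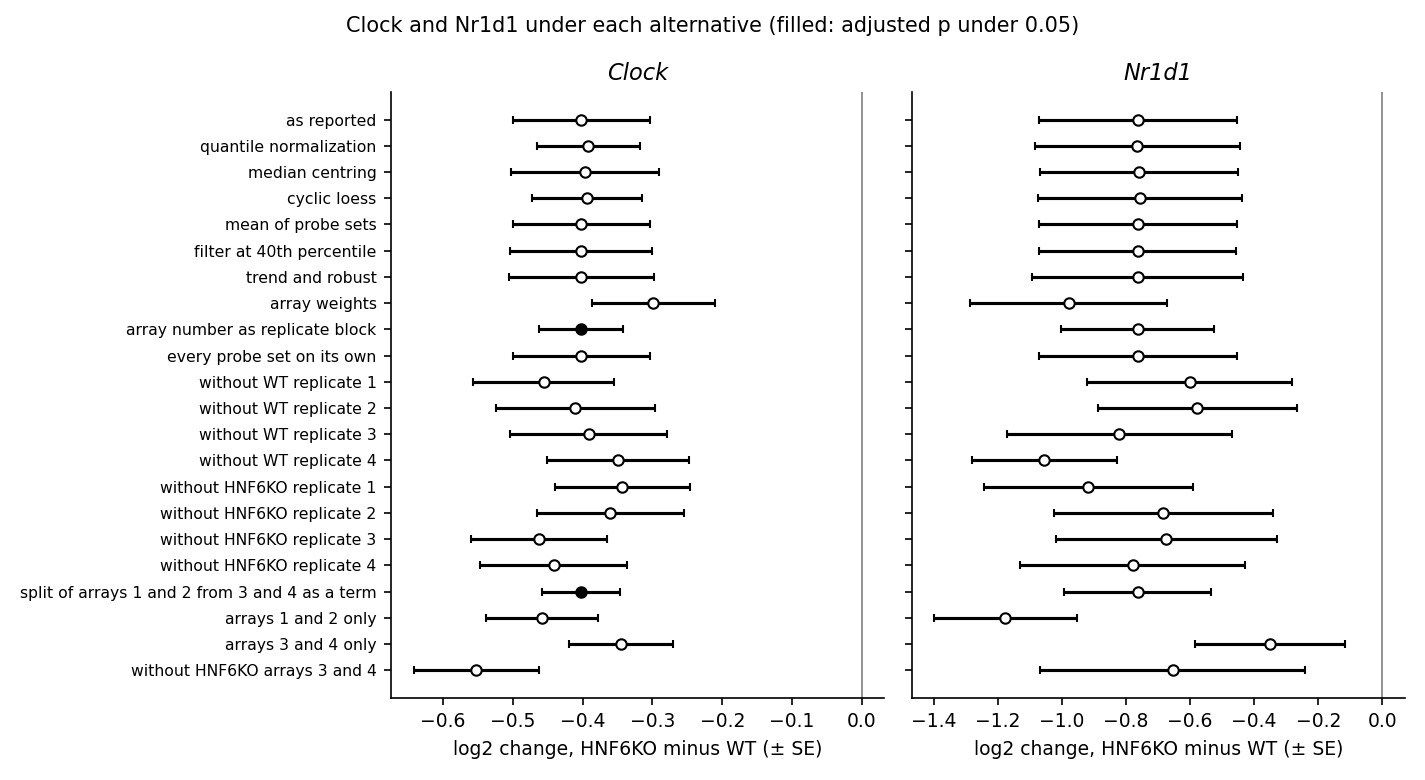
Log2 change (HNF6KO minus WT, horizontal axes) ± SE of Clock (left) and Nr1d1 (right) as reported and under each alternative (rows), filled where the adjusted p was under 0.05. Clock lies between -0.55 and -0.30 and is filled in 2 rows, while Nr1d1 lies between -1.18 and -0.35 and is filled in none.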

How the data were processed

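The authors deposited 1 log2 value per probe set and array (22725 probe sets, 3.69 to 14.1). That the scale is log2 is read from the values, and for their normalization no label or header names a method. The platform annotation paired 21113 probe sets with 1 gene symbol, which gave 19540 genes, and for 883 genes with several probe sets the brightest one was used. All genes were fitted together with limma 3.58.1 (lmFit, eBayes; R 4.3.3) for HNF6KO minus WT, with Benjamini-Hochberg adjustment and a threshold of 0.05. Single values and correlations were tested by exact permutation in Python. The tests were checked on simulated data. The members and gene lists were chosen with earlier results of these data known. Genes named are the members, Onecut1, in each list those past the threshold and up to 4 with the smallest p, and for each member the 2 genes of highest and the 1 gene of lowest r. Single further values are named where a sentence says why. The planned contrast of Clock with Npas2 could not be made. Alternatives covered normalization, filtering, variance model, weights, probe sets, array number and each array left out.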

Additional observations from a re-analysis of the deposited data

Results flagged for a closer look

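Among 20 genes checked in each group of 4 arrays, 1 value lay far from the others. Fbxw7, a ubiquitin ligase subunit, was 6.44 on WT array 4, and 6.29 to 6.31 on the other WT arrays. The gap took up 0.890 of the WT range, above Dixon's 95% critical value for 4 samples. Chance flags about 1 in 20 groups, and 40 groups were checked. No array of a member gene stood apart by this test.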

How the results depend on the processing

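With 4 arrays per group and no stated normalization, small changes of dim genes are poorly resolved, and a shift of all transcripts would not be seen. The count of 78 genes past the threshold was 202 with array weights, 125 with the array number as a replicate block, 245 with arrays 1 and 2 split from arrays 3 and 4 as a term, 22 within arrays 1 and 2, 19 without HNF6KO arrays 3 and 4, and 16 to 79 with 1 array left out. Same-numbered arrays of the groups deviated together with r = 0.44, 0.17, 0.51 and 0.02. HNF6KO arrays 1 and 3 deviated most like the WT array of their own number. HNF6KO array 2 was closest to WT array 1 (r = 0.24) and HNF6KO array 4 to WT array 3 (r = 0.45), so the numbers do not show a pairing throughout. Under the replicate block Clock passed at -0.40 (limma, adjusted p = 0.0489), as with the split as a term (-0.40), and no other member did. The split, its sides and the fit without HNF6KO arrays 3 and 4 were chosen after seeing the data. Nr1d1 (-0.76) did not pass the exact permutation test without adjustment.
Signs of near-zero changes turned, none with a call. Arntl was -0.038 without HNF6KO arrays 3 and 4 and -0.021 to 0.066 with 1 array left out. Nr1d2 was 0.0023 after quantile normalization, 0.062 within arrays 3 and 4 and -0.066 to 0.027 with 1 array left out. Rora was -0.0035 without HNF6KO arrays 3 and 4 and -0.036 to 0.051 with 1 array left out. Rorb was -0.0030 and Arntl2 0.052 without HNF6KO arrays 3 and 4, and Arntl2 was -0.085 to 0.0042 with 1 array left out. The r of Arntl and Rora was 0.0035 after median centring and -0.32 to 0.29 with 1 array left out. In the same leave-outs it was -0.39 to 0.32 for Clock and Nr1d2, -0.36 to 0.030 for Clock and Rora, and -0.29 to 0.85 for Nr1d1 and Rora. Of the E-box genes 1 (Nampt) passed after quantile normalization, with array weights or with the split as a term, and 0 to 1 with 1 array left out. Of the genes with ROR elements 0 passed within arrays 1 and 2 or without HNF6KO arrays 3 and 4, where fewer arrays were fitted and Elovl3 was -1.86 and -1.85. The Onecut1 call was lost within arrays 1 and 2, without both HNF6KO arrays 3 and 4, and in 5 of the 8 fits with 1 array left out (WT 1, WT 3, WT 4, HNF6KO 3, HNF6KO 4), where the change stayed between -1.34 and -1.23. The causes were not tested.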
